A study of Mus musculus with 6 samples.

Results

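Collagen chains are the products of the genes whose symbols read Col, a number, a and a number. They were followed here in the mouse cochlear sensory epithelium (CSE) at postnatal day 3 (P3) and in the adult. All probe sets that the array annotation assigned to a single gene with such a symbol were taken. This gave 82 probe sets of 42 genes, out of 45101 probe sets and 18194 genes named by probe sets of a single gene. RNA was measured on 6 Affymetrix expression arrays of the mouse. Each array held RNA from CSE of 20 pooled Swiss mice (Swiss Webster in the study's methods), with 3 pools of P3 mice and 3 pools of mice of 8 weeks, so that 60 mice stood behind each stage. Each pool came from its own dissection, so the p-values measure the spread between pools. All mice were of 1 strain with no treatment or engineered allele given, and their sex is not given in the sources used here. By the study's methods, the capsule, modiolus, spiral ligament and stria vascularis were dissected away. The P3 pieces also held the greater and lesser epithelial ridges, and the adult pieces the inner sulcus and the interdental cells of the limbus. The tissue taken thus differed between the stages in more than age.

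Collagens are secreted proteins in which chains wind around each other into a rope-like helix. Fibrillar collagens assemble into cross-striated fibrils, and FACIT collagens (fibril-associated collagens with interrupted triple helices) sit on the surface of such fibrils. Network collagens form sheets, the best known being collagen IV of basement membranes. Others cross the cell membrane or form beaded filaments and anchoring fibrils. In the cochlea, the tectorial membrane over the hair cells holds fibrils of collagens II, V, IX and XI, and mutations in chains of collagens II, IV, IX and XI are known causes of hearing loss. The chains sorted here into 11 fibrillar, 9 network, 9 FACIT and 4 transmembrane genes, and 9 others.

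Several collagen genes lie next to each other in the genome, among them the pairs Col4a1 and Col4a2 on chromosome 8 and Col4a5 and Col4a6 on the X chromosome, both of which point away from each other. Their promoters are shown because these neighbours give the closest comparison between genes of shared position, and because the arrays called both genes of the first pair and, of the second, Col4a5. As described in what follows, the contrast within the second pair is limited. Col4a6 was above background on 2 arrays of each stage, and the Col4a5 call was lost in most fits with an array left out. The sequences are from RefSeq (build GRCm38.p6), run from 250 bases before to 50 bases after the transcription start on the strand of the gene, and have in capitals each match on either strand to CCAAT or GGGCGG, the letters of the CCAAT box and the GC box.
Col4a1 (chr8:11312777-11313076, minus strand): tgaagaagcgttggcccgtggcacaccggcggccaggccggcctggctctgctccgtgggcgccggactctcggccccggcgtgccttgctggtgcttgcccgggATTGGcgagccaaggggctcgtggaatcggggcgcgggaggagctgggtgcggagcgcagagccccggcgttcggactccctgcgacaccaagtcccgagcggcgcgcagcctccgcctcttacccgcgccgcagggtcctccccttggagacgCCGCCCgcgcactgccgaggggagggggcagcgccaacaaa
Col4a2 (chr8:11312555-11312854, plus strand): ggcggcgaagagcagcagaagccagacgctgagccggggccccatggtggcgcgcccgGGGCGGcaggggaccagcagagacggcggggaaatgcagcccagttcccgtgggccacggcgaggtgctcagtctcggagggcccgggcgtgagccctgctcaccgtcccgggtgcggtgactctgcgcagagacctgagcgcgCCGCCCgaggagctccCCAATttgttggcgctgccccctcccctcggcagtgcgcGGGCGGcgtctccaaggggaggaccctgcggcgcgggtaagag
Col4a5 (chrX:141475169-141475468, plus strand): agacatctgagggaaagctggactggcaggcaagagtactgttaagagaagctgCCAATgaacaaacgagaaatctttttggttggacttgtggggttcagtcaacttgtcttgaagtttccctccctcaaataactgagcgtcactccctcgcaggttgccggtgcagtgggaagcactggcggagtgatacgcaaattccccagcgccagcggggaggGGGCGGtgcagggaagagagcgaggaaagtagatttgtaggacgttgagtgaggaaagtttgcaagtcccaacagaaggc
Col4a6 (chrX:141474027-141474326, minus strand): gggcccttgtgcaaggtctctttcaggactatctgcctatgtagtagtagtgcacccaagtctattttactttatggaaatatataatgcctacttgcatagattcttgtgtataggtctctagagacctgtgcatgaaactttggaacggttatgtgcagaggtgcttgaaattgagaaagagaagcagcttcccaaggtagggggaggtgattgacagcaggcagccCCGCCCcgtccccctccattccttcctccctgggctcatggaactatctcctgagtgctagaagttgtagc
The Col4a1 and Col4a2 windows share 78 bases, read on opposite strands, while those of Col4a5 and Col4a6 do not overlap. GC content was 74% and 73.7% for Col4a1 and Col4a2, 52.7% for Col4a5 and 48.3% for Col4a6. None of the 4 windows held TATAAA, the core of the TATA box.

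Over all collagen genes, 36 promoters of 33 genes were in the RefSeq table and 9 genes had none. GGGCGG was present on either strand in 61.1% of the collagen promoters and in 35.7% of all 32851 promoters. CCAAT was in 36.1% against 37.4%, and TATAAA in 13.9% against 13.6%. Among collagen promoters of genes that were called higher at P3, as described in what follows, CCAAT was present in 7 of 13, GGGCGG in 8 and TATAAA in 1, against 4, 12 and 2 of 19 promoters of genes not called. These are counts of promoters and not of genes, as the called Col9a1 and Col18a1 and the uncalled Col6a2 each gave more than 1. The GGGCGG match in the bases shared by the Col4a1 and Col4a2 windows was counted for both. A match describes these letters in this window and no more, and these shares were not tested.

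The values are MAS5.0 signals, hybridization intensities on a linear scale that the authors scaled to a common trimmed mean on each array. A signal was counted as above background where it exceeded the 90th percentile of 83 probe sets for receptors of smell, pheromones and bitter taste on the same array. This level was highest, 34.5, on P3 replicate 1 and between 6.29 and 16.3 on the other arrays. P3 replicate 1 stood apart too in the ratio of 3' to 5' signal of the control gene Gapdh, a measure of RNA integrity, which was 82.0 on it and 0.707 to 2.07 elsewhere. Stages were compared with limma over the 29036 probe sets that exceeded background on 3 or more arrays, and each gene is given by its brightest one among these, that is, the one with the highest signal on average. A gene counted as called if it changed 2-fold or more and its p-value, adjusted by Benjamini-Hochberg over these probe sets, was under 0.05. All differences are the log2 signal of the adult less that of P3, so that negative values are higher at P3. Signals of different genes depend on their probes and are not set against each other as levels.

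Of the 42 collagen genes, 38 passed the background filter and 32 of these were above background on all 6 arrays. No collagen gene was above background on every array of one stage and on none of the other. Col10a1, the collagen of hypertrophic cartilage, Col17a1, a hemidesmosome protein, Col6a4 and Col6a5 were above background on 0 arrays and were not compared.

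Many collagen chains were lower in the adult CSE than at P3, and none was called higher. In limma, 17 of 38 genes, or 44.7%, were called higher at P3 and 0 the other way, whereas over all genes tested 5.54% were called higher at P3 and 4.58% the other way. At an unadjusted p under 0.05, 27 of the 38 (71.1%) passed, against 28.9% of all genes, and of the 27 Col19a1 alone was higher in the adult. Counting direction alone, 34 of the 38 genes had a negative log2 fold change. The median over the collagen genes was -1.73, with a range from -3.89 in Col9a1 to 2.82 in Col19a1, which was below background on 2 P3 arrays, and the median over all genes was -0.04. On 25 genes, or 65.8%, each P3 array was above each adult array, against 20.4% of all genes, and on 2 genes each adult array was higher, against 16% of all genes. At the level of single probe sets, 27 of 67 kept collagen probe sets (40.3%) were called higher at P3 and 0 the other way, against 3.87% and 3.39% of all probe sets. RNA of a whole tissue was measured, so fewer cells that make a collagen and less collagen RNA per cell cannot be told apart.

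**Figure D1:**
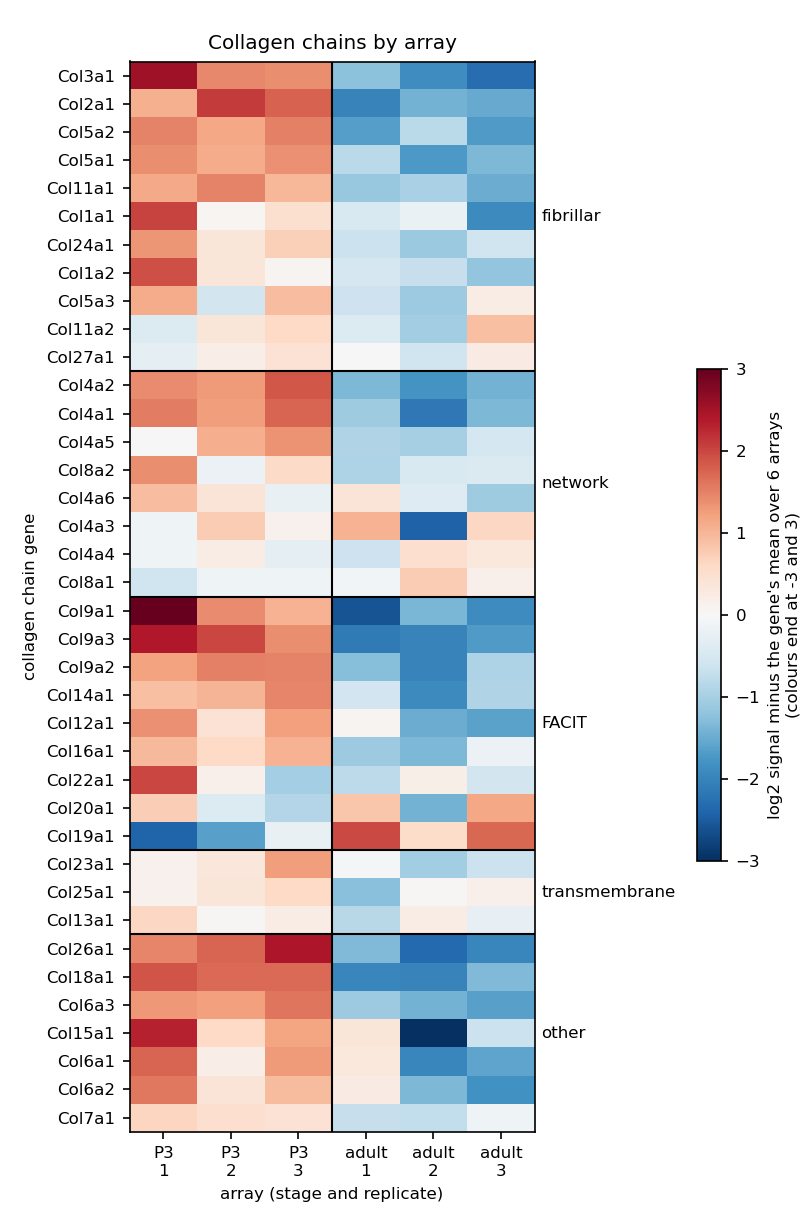
Heat map of the 38 collagen genes with a kept probe set on the 6 arrays, ordered by class, with each gene's log2 signal centred on its mean over the arrays and colours ending at 3 in either direction. In most rows the 3 P3 arrays lie above the row mean and the 3 adult arrays below it, with Col19a1 and Col8a1 the rows in which each adult array was higher.

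Features of the arrays and of the tissue are given here beside these counts. P3 replicate 1 gave the highest signal of all 6 arrays for 18 of the 38 genes, and adult replicate 2 the lowest for 19. These 2 counts were not taken over all genes, so they are not read as particular to collagens. Without P3 replicate 1, 17 collagen genes were called higher at P3, 16 of them shared, with Col12a1 lost and Col1a2 gained, while 6.32% of all genes were called so. Leaving out each array in turn gave between 14 and 17 calls. Over all genes, the share called higher at P3 in these fits ran from 1.79% (without adult replicate 3) to 6.32% (without P3 replicate 1). The spread between pools differed from gene to gene, and from the lowest to the highest P3 pool it was 0.20 on the log2 scale in Col18a1, the narrowest, 2.35 in Col9a1 and 3.03 in Col22a1, the widest. Markers of cells that the pieces could hold were examined too. Of 8 genes of bone marrow granulocytes, 7 were called higher in the adult, against 4.58% of all genes. Their summed signals were 129 to 414 at P3 and 3770 to 16723 in the adult. None of 8 markers of fibroblasts and mesenchyme was called in limma. Prrx1 had an adjusted p of 0.0449 in limma but, at -0.87, changed less than 2-fold. An unadjusted p under 0.05 was reached by 5 of the 8, against 28.9% of all genes. On 4 of the 8 each P3 array was above each adult array, against 20.4% of all genes. All 8 had a negative log2 fold change with a median of -0.85. Their sum was 10075 to 15209 at P3 and 7019 to 7799 in the adult. Such sums are weighted to the brightest probe sets. For fibroblasts and mesenchyme on P3 replicate 1 these were Lum at 7317 and Dcn at 4105. Their log2 fold changes were -1.26 and -0.07, neither called. The part of these cells in the collagen result was not tested.

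The labelled tissue was checked on markers of the sensory epithelium. Myo7a, a motor protein of hair cells, was above background on all arrays, with signals of 76.3, 57.1 and 50.4 at P3 and 53.6, 52.9 and 59.9 in the adult. The defining outer hair cell gene Slc26a5 was above background on 0 arrays and the transduction gene Tmc1 on 1. Of the supporting cell genes 9 of 9 were kept, although Prox1 was above background on 2 P3 arrays. Of these 9, 3 were called higher at P3 and 1 in the adult, against 5.54% and 4.58% of all genes. Their summed signal was 14212 to 38968 at P3 and 12853 to 19315.0 in the adult. The highest sum, on P3 replicate 1, held 21617 from Epyc and 10637 from Tectb.

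The classes were described one by one, and their counts were not compared by a test. All 11 fibrillar chains had a negative log2 fold change, 5 of them were called higher at P3, and the median was -1.71. The change was found both in chains of connective tissue fibrils and in those of cartilage-type fibrils. Col3a1, the chain of collagen III in reticular fibres, had signals of 9064, 4184 and 4094 at P3 and 667, 424 and 319 in the adult, given here and elsewhere in the order of the replicates. Every P3 array was far above every adult array and P3 replicate 1 was the highest of its stage. Col3a1 fell by 3.58 on the log2 scale (adjusted p = 0.0022 in limma, SE 0.40). A second Col3a1 probe set gave 1172, 1004 and 1211 at P3 and 79.2, 59.7 and 38.9 in the adult, with P3 replicate 1 in the midst of its group, and a log2 fold change of -4.31 (limma adjusted p = 0.000489).

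Col5a1 and Col5a2 encode chains of collagen V, which starts and limits the growth of fibrils of collagens I and III. Col5a2 signals were 1454, 1157 and 1493 at P3 and 167, 295 and 159.8 in the adult. They fell by 2.77 on the log2 scale (adjusted p = 0.00169 in limma, SE 0.28), and the stages did not overlap. Its neighbour on chromosome 1 is Col3a1, and both neighbours were called. Col5a1 signals were 488, 396 and 478 at P3 against 105, 56.1 and 72.3, likewise with no overlap, and fell by 2.59 (adjusted p = 0.00205 in limma, SE 0.28). A second Col5a1 probe set had the same direction but missed the threshold, at -1.83 (limma adjusted p = 0.0531). The third chain of the family, Col5a3, was at -0.9999 (adjusted p = 0.302 in limma, SE 0.53), and its arrays overlapped between the stages.

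Col2a1, the chain of collagen II of cartilage and of the tectorial membrane, had signals of 2229, 4529 and 3636 at P3 and 266, 398 and 375 in the adult. Here P3 replicate 1 was the lowest array of its stage and still several times above the adult arrays. Col2a1 fell by 3.29 (adjusted p = 0.00137 in limma, SE 0.31). Its partner in cartilage-type fibrils, Col11a1, had signals of 1546, 1998 and 1403 at P3 against 319.6, 359.9 and 253, which did not overlap, and fell by 2.41 (adjusted p = 0.00161 in limma, SE 0.24). Both Col11a1 probe sets gave the same value to 2 decimals, -2.41 for the second. The second chain of collagen XI, Col11a2, a known deafness gene, had signals of 333, 569 and 672 at P3 and 335, 216 and 830.4 in the adult. The stages overlapped, with adult replicate 3 the highest of all arrays, and the log2 fold change of Col11a2 was -0.36 (adjusted p = 0.699 in limma, SE 0.48), or 0.07 without adult replicate 2.

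The chains of collagen I, the main fibril of bone, skin and tendon, did not pass the test on their brightest probe sets. Col1a1 signals were 669.7, 171 and 229 at P3 and 119, 144 and 43.7 in the adult, at -1.71 on the log2 scale (adjusted p = 0.12 in limma, SE 0.59). Col1a2 signals were 14541, 4887 and 4033 at P3 against 2699.7, 2385 and 1691, with a log2 fold change of -1.57 (adjusted p = 0.0928 in limma, SE 0.49). In both genes the stages did not overlap, and P3 replicate 1 was well above the other P3 pools. Without P3 replicate 1 the Col1a2 value was -1.002 with a limma adjusted p of 0.0458. Among the minor fibrillar chains of the developing skeleton, Col24a1 was at -1.59 (adjusted p = 0.0536 in limma, SE 0.41) with no overlap of the stages, and Col27a1 at -0.25 (SE 0.29) with overlap.

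Of the 8 network chains kept, 3 were called higher at P3, all of them chains of collagen IV, and the median log2 fold change was -0.96. Col4a1 and Col4a2 encode the pair found in nearly every basement membrane. Col4a1 signals were 1573, 1297 and 1806 at P3 and 259.7, 123 and 212 in the adult, and fell by 3.03 (adjusted p = 0.00163 in limma, SE 0.31). Col4a2 signals were 683, 623 and 933 at P3 against 101, 73.4 and 96.4, and fell by 3.04 (adjusted p = 0.000703 in limma, SE 0.25). In both genes the highest array was P3 replicate 3, the lowest was adult replicate 2, and the stages were well apart.

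Col4a3, Col4a4 and Col4a5 encode the chains of another collagen IV, whose loss causes Alport syndrome with hearing loss. Col4a5 signals were 316, 675 and 805 at P3 and 169, 160.2 and 219.8 in the adult, with no overlap, and fell by 1.62 (adjusted p = 0.0303 in limma, SE 0.35). This call was lost when P3 replicate 2 or 3 or any adult array was left out, with limma adjusted p between 0.0786 and 0.0996. Col4a4 signals were 98.8, 127 and 87.5 at P3 against 69.7, 154 and 135, with overlap, and a log2 fold change of 0.14 (SE 0.35). Col4a3 was above background on 2 arrays of each stage, with signals of 17.4, 32.4 and 20.7 at P3 against 38.9, 3.57 and 29.3, so that adult replicate 2 was the lowest and adult replicate 1 the highest of all. Its log2 fold change was -0.51 (SE 0.90), and 0.58 without adult replicate 2. Col4a6, the X-linked neighbour of Col4a5, was likewise above background on 2 arrays of each stage and had a log2 fold change of -0.72 (SE 0.64).

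Collagen VIII, a short-chain network collagen of the eye and of vessel walls, was the other network collagen compared. Col8a1 signals were 347, 477 and 481 at P3 and 495, 891 and 581 in the adult, with each adult array above each P3 array, at a log2 fold change of 0.56 (adjusted p = 0.264 in limma, SE 0.28). Col8a2 signals went the other way, 838, 283 and 479 at P3 against 168, 233 and 238, at -1.20 (adjusted p = 0.0966 in limma, SE 0.38). Neither gene passed the test.

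**Figure D2:**
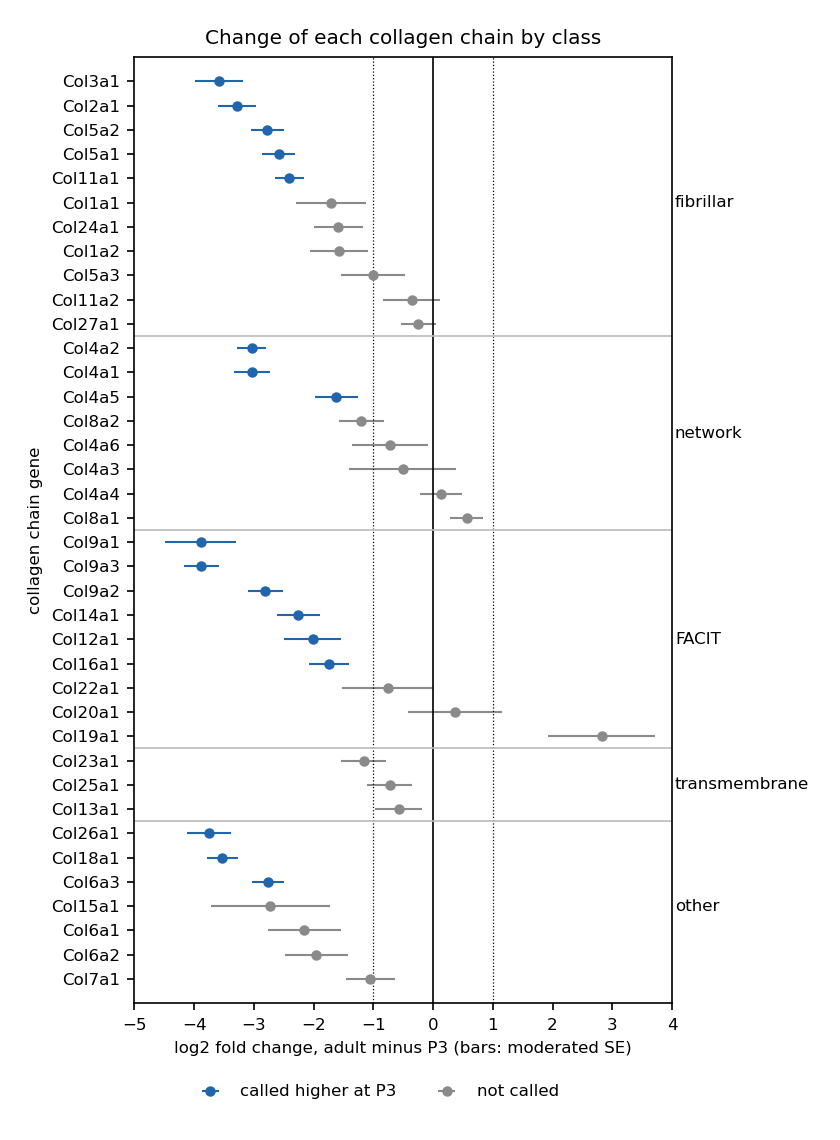
Log2 fold changes (adult minus P3, horizontal axis) of the 38 collagen genes by class, each with limma's standard error as a bar. Genes called higher at P3 are blue and genes not called are grey. The 17 called genes all lie to the left of 0, from -1.62 in Col4a5 to -3.89 in Col9a1, and 4 genes lie to the right of it.

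FACIT chains were called higher at P3 in 6 of 9 genes, with a median log2 fold change of -2.01. All 3 chains of collagen IX, which covers collagen II fibrils, were among them. Col9a1 signals were 24288, 6267 and 4765 at P3 and 384, 906 and 635 in the adult. P3 replicate 1 was far above the other P3 pools, and these were in turn well above all adult arrays. Col9a1 fell by 3.89 (adjusted p = 0.00783 in limma, SE 0.60), and by 3.93 with a limma adjusted p of 0.0503 without adult replicate 3. A second Col9a1 probe set gave 810.1, 2477 and 1959.7 at P3 against 47.4, 92.3 and 81.2, with P3 replicate 1 now the lowest of its stage, and a log2 fold change of -4.48 (adjusted p = 0.00142 in limma, SE 0.44).

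Col9a3 signals were 4195, 3206 and 2099 at P3 and 184, 197 and 246 in the adult, and fell by 3.88 on the log2 scale (adjusted p = 0.000554 in limma, SE 0.29). Col9a2 signals were 925, 1149.6 and 1122 at P3 against 166, 99.2 and 211, and fell by 2.81 (adjusted p = 0.0019 in limma, SE 0.30). The stages were apart in both genes, and the 3 P3 pools of Col9a2 lay closer together than those of Col9a1.

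Col12a1 and Col14a1 encode FACIT chains of collagen I fibrils. Col14a1 signals were 379, 412 and 559 at P3 and 135, 54.0 and 109 in the adult, and fell by 2.26 (adjusted p = 0.00881 in limma, SE 0.36). Col12a1 signals were 311, 162 and 280.3 at P3 against 127, 42.8 and 39.2, and fell by 2.01 (adjusted p = 0.0396 in limma, SE 0.48). Both genes had no overlap, but the Col12a1 call was lost in 5 of the 6 fits with an array left out, the exception being the one that lacked adult replicate 1. In these 5 fits its limma adjusted p lay between 0.0522 and 0.163. Col16a1, a minor FACIT, had signals of 361, 275 and 378 at P3 against 86.6, 71.8 and 162 and fell by 1.74 (adjusted p = 0.0178 in limma, SE 0.33). It missed the threshold when P3 replicate 3 was left out (limma adjusted p = 0.0701) and likewise for adult replicate 1 (limma adjusted p = 0.0515).

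The other FACIT genes were near background on some arrays. Col19a1, next to Col9a1 on chromosome 1 and a chain of basement membrane zones, had signals of 1.46, 2.49 and 6.54 at P3 and 30.0, 11.1 and 25.1 in the adult, and was above background on 1 P3 array and on all adult arrays. Each adult array was above each P3 array, yet the log2 fold change of 2.82 had an SE of 0.89 and a limma adjusted p of 0.0973. It was 0.67 (limma adjusted p = 0.706) with signals floored at background and 1.02 (limma adjusted p = 0.0741) with the mean background added. Col20a1 was at 0.37 (SE 0.78) and Col22a1, a collagen of tissue junctions, at -0.76 (SE 0.76). The stages overlapped in both, and the sign of Col20a1 turned to -0.12 without adult replicate 3 and that of Col22a1 to 0.06 without P3 replicate 1.

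None of the 3 transmembrane chains kept was called in limma, although Col23a1 had an unadjusted p under 0.05, and their median log2 fold change was -0.73. Col23a1 signals were 134, 156 and 292 at P3 and 118, 59.5 and 78.3 in the adult, with no overlap, at -1.16 (adjusted p = 0.104 in limma, SE 0.38). Col25a1, a collagen known from the innervation of muscle, was at -0.73 (SE 0.37), and Col13a1, a collagen of the neuromuscular junction, at -0.58 (SE 0.40), both with overlap. A second Col25a1 probe set had the other sign, at 0.86 (SE 0.90), and was not called.

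Among the other chains, all 7 kept had a negative log2 fold change, 3 were called higher at P3, and the median was -2.72. Col18a1, a proteoglycan of basement membranes that is the source of endostatin, had signals of 651, 569 and 568 at P3 and 45.1, 43.7 and 69.4 in the adult. P3 pools differed little from each other, and the lowest was several times above the highest adult array. Col18a1 fell by 3.53 (adjusted p = 0.000499 in limma, SE 0.26), and by 3.98 on a second probe set. Its relative Col15a1 had signals of 156, 48.0 and 71.6 at P3 against 40.8, 2.26 and 20.2, with a log2 fold change of -2.72 (adjusted p = 0.141 in limma, SE 1.00). Adult replicate 2 of Col15a1 was under background, and the value was -1.50 without that array and -1.63 with the mean background added.

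Collagen VI forms beaded filaments near the cell surface from the products of Col6a1, Col6a2 and Col6a3. Col6a3 signals were 262, 252 and 324 at P3 and 50.4, 39.8 and 34.2 in the adult, and fell by 2.76 (adjusted p = 0.00142 in limma, SE 0.27). Col6a1 signals were 431, 149 and 313 at P3 against 161, 33.0 and 42.7, at -2.16 (adjusted p = 0.0722 in limma, SE 0.62). Col6a2 signals were 719, 314 and 459.6 at P3 against 282, 93.1 and 67.9, at -1.95 (adjusted p = 0.0596 in limma, SE 0.53). Adult replicate 1 was high for Col6a1 and Col6a2 and not for Col6a3 to the same degree, and the stages overlapped in Col6a1. Without adult replicate 1, Col6a1 was at -2.85 (limma adjusted p = 0.0168) and Col6a2 at -2.56 (limma adjusted p = 0.0124).

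Col26a1, a collagen with an emilin-type domain, had signals of 229.8, 277 and 443 at P3 and 33.2, 16.4 and 21.3 in the adult. Its mean was 317 ± 112 at P3 and 23.6 ± 8.64 in the adult (SD, n = 3 arrays per stage) with no overlap, and Col26a1 fell by 3.75 (adjusted p = 0.00157 in limma, SE 0.37). Col7a1, the chain of the anchoring fibrils under epithelia, had signals of 42.8, 39.4 and 37.1 at P3 against 17.0, 16.6 and 25.1. Its arrays did not overlap, at a log2 fold change of -1.05 (adjusted p = 0.169 in limma, SE 0.41).

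**Figure D3:**
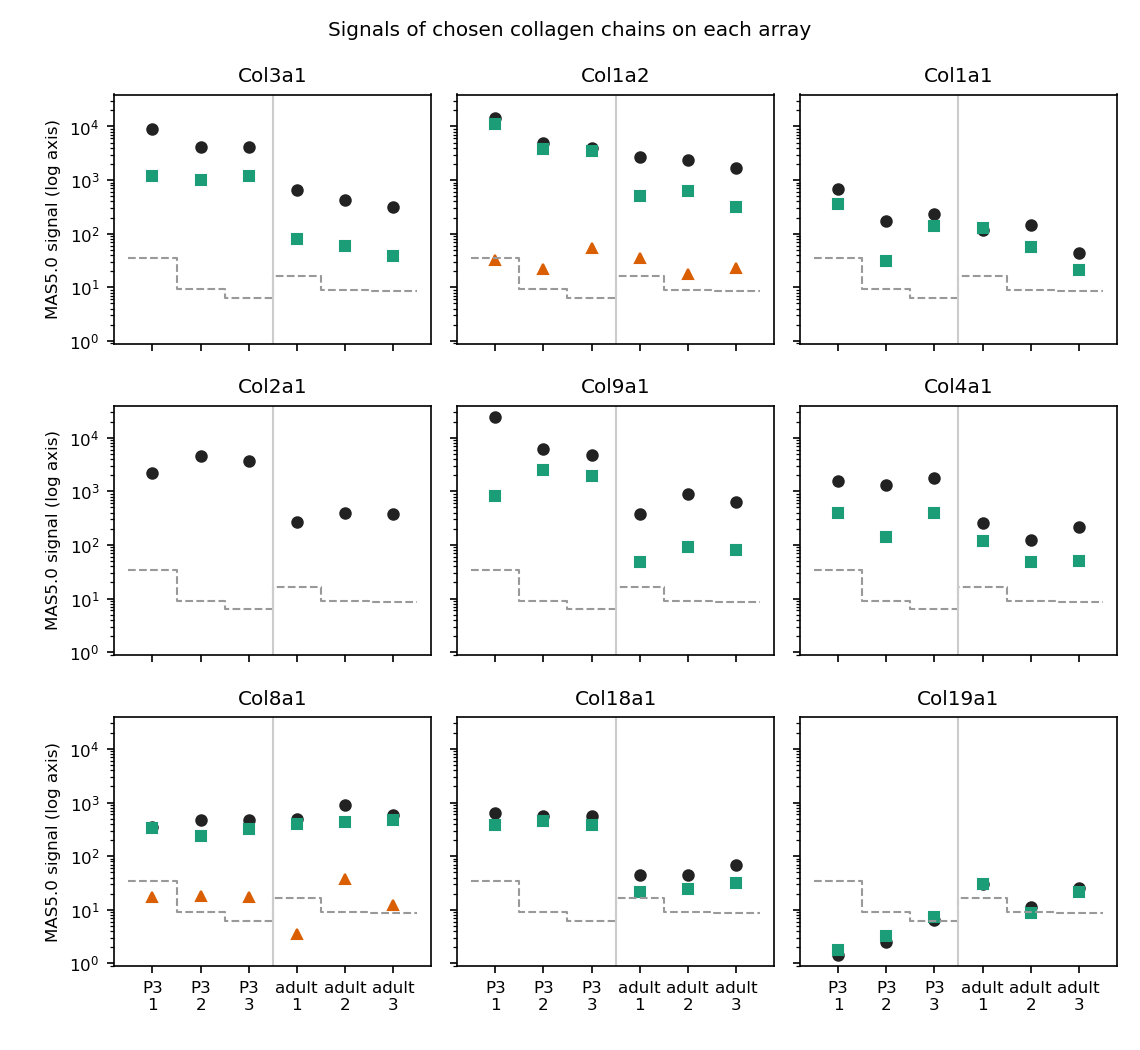
Signals (log axis) on the 6 arrays for every kept probe set of 9 collagen genes, with circles for the brightest probe set, squares for the second and triangles for the third, and the background level of each array as a dashed line. The squares of Col1a2 drop further in the adult than its circles, and in Col9a1 the circle of P3 replicate 1 is the highest and its square the lowest of the P3 arrays.

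Of 23 collagen genes with more than 1 kept probe set, 4 had unlike calls among them. In Col1a2 the difference was wide. The second probe set had signals of 11042, 3772 and 3497 at P3 and 495, 618 and 315 in the adult and was called higher at P3, at a log2 fold change of -3.52 (adjusted p = 0.00455 in limma, SE 0.47). The ratio of the brightest to the second within an array was 1.32, 1.30 and 1.15 at P3 and 5.45, 3.86 and 5.36 in the adult. This ratio did not overlap between the stages and changed by 1.95 on the log2 scale. An exact permutation test of 3 arrays against 3, two-sided, gave its smallest possible p of 0.1, or 0.46 after adjustment over the 23 genes. With this probe set counted, 18 collagen genes had a probe set called higher at P3.

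The other genes with unlike calls were Col5a1, Col9a3 and Col12a1. The third Col9a3 probe set was near background, at 0.07, while the second agreed in call with the brightest at -3.31. The second Col12a1 probe set was at -0.57 (SE 0.58), with signals of 29.9, 25.5 and 33.5 at P3 against 41.8, 17.5 and 10.6. Among genes with like calls, the kept probe sets of Col8a1 (from -0.60 to 0.58) and Col25a1 (from -0.73 to 0.86) differed in sign, and none of them was called. In Col9a1 the ratio of the brightest to the second probe set was 30.0 on P3 replicate 1, 2.53 and 2.43 on the other P3 arrays and 7.82 to 9.81 in the adult. Over the 23 genes this ratio was highest among the P3 arrays on P3 replicate 1 in 11, and it did not overlap between the stages in 5. In each of these 5 the exact permutation p was 0.1, the smallest possible, or 0.46 after adjustment. The same counts were not taken over other genes, so they are not read as particular to collagens.

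Chains of one collagen, of one fibril type or of related collagens were compared as ratios of signals within an array, in 16 pairs. Col4a1 over Col4a2, on the log2 scale, was 1.203, 1.06 and 0.95 at P3 and 1.36, 0.75 and 1.14 in the adult. The stages overlapped, and the mean ratio differed by 0.01, so this pair moved together on these probe sets, or by 0.49 when each gene was averaged over its probe sets. Col9a1 over Col9a3 differed by -0.02, with overlap, and by -1.81 with such averages. The ratio of Col1a1 to Col1a2 differed by -0.14 and that of Col6a1 to Col6a2 by -0.20, both with overlap.

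In 4 of the 16 pairs the ratios of the stages did not overlap. The same count was not taken over pairs of other genes, so it is not read as particular to collagens. Col11a1 over Col11a2 was 2.22, 1.81 and 1.06 at P3 and -0.07, 0.73 and -1.72 in the adult, a difference of -2.05. Col4a1 over Col4a3 was 6.501, 5.32 and 6.45 at P3 and 2.74, 5.11 and 2.86 in the adult, a difference of -2.52. These chains belong to different collagen IV molecules, and since Col4a3 was above background on 2 arrays of each stage, this ratio is not an exact value. The ratio of Col1a1 to Col3a1 differed by 1.87 and that of Col8a1 to Col8a2 by 1.76, both with the higher mean in the adult. None of these differences passed a test, as each of the 4 pairs had a two-sided exact permutation p of 0.1, the smallest that 3 arrays against 3 can give, and 0.4 after adjustment over the 16 pairs.

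**Figure D4:**
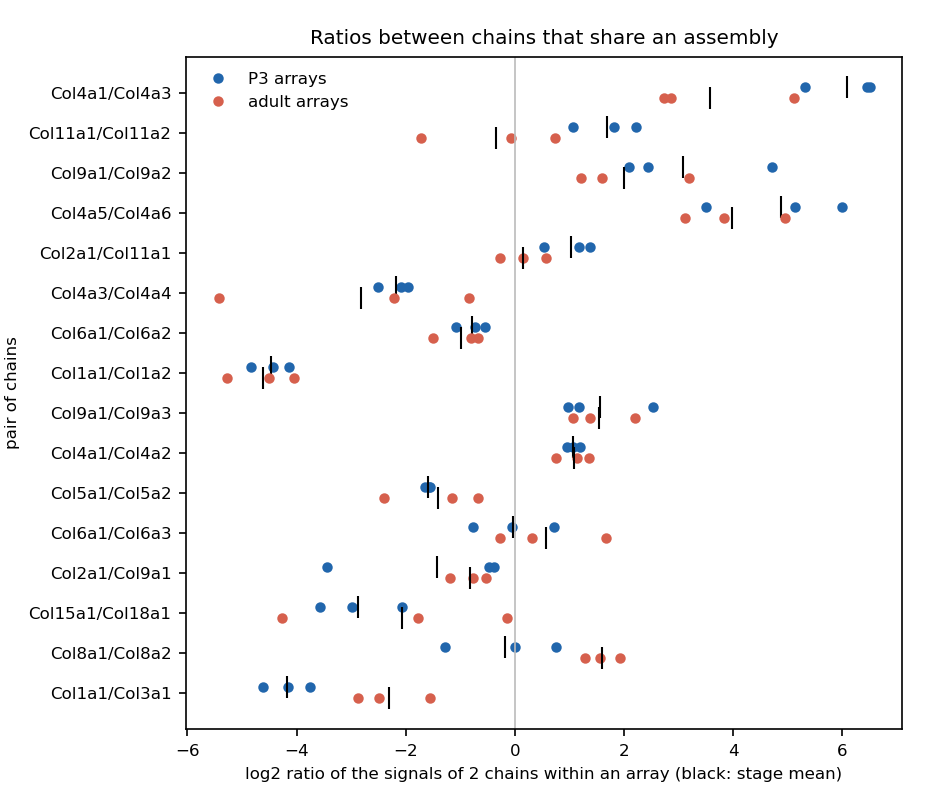
Log2 ratio of the signals of 2 chains on the same array (horizontal axis) for the 16 pairs, with P3 arrays in blue, adult arrays in red and black bars at the stage means. The stages are apart in Col11a1/Col11a2, Col1a1/Col3a1, Col4a1/Col4a3 and Col8a1/Col8a2, and the bars of Col4a1/Col4a2 nearly coincide, at 1.07 and 1.08.

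Before they are secreted, collagen chains are hydroxylated on proline and lysine, folded with chaperones and exported in large carriers, and outside the cell their propeptides are cut off and the fibrils cross-linked. Of 36 genes listed for these steps, 29 were kept. In limma, 9 of these 29 (31%) were called higher at P3, against the 5.54% of all genes, and 0 higher in the adult, where P3h2 had an unadjusted p under 0.05, and their median log2 fold change was -0.86. By the step under which each gene was listed, the calls were 4 of 10 for prolyl hydroxylation, 0 of 5 for lysyl hydroxylation and glycosylation, 2 of 6 for chaperones and export, 2 of 4 for propeptide removal and 1 of 4 for cross-linking.

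In prolyl hydroxylation, 2 of the 3 catalytic subunits of prolyl 4-hydroxylase were called. P4ha3 signals were 71.8, 111 and 115 at P3 and 14.7, 6.27 and 13.98 in the adult, and fell by 3.16 (adjusted p = 0.00731 in limma, SE 0.48). P4ha3 was above background on 1 adult array, and its log2 fold change was -2.93 with signals floored at background and -2.14 with the mean background added. P4ha2 signals were 155, 278 and 174 at P3 against 43.0, 28.3 and 32.2, and fell by 2.53 (adjusted p = 0.00423 in limma, SE 0.33). P4ha1 was at -0.37 (SE 0.23) and the shared subunit P4hb at -0.53 (SE 0.40), neither called. Within the gene family named for prolyl 3-hydroxylase, P3h3 fell by 2.02 (limma adjusted p = 0.00375). Crtap, listed with this family, fell by 1.66 (limma adjusted p = 0.00451). P3h1 was at -1.09 (adjusted p = 0.199 in limma, SE 0.47), and its stages overlapped. P3h2 was above background on 1 P3 array and on all adult arrays, at 2.58 (adjusted p = 0.0998 in limma, SE 0.83).

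Among chaperones and carriers, Serpinh1, the collagen chaperone Hsp47, had signals of 7179, 1720.2 and 2046 at P3 and 827, 379 and 977 in the adult. These did not overlap, but the log2 fold change of -2.12 had an SE of 0.57 and a limma adjusted p of 0.059. Fkbp14, a prolyl isomerase, had a log2 fold change of -1.399 and Sec24d, a coat protein of export vesicles, of -1.4003, both called (limma adjusted p = 0.0131 and 0.0426). Of the enzymes that cut propeptides, Adamts3 fell by 2.04 (limma adjusted p = 0.0347), as did the enhancer Pcolce2 by 1.36 (limma adjusted p = 0.0419), and Bmp1 was at -1.49 (limma adjusted p = 0.0527). Adult Adamts3 signals were 18.5, 9.73 and 22.1, where the background was 16.3, 9.05 and 8.71. The smallest fall of Adamts3 under the alternatives was a log2 fold change of -1.39. Of the cross-linking enzymes, Loxl1 signals were 1123, 714 and 1064 at P3 against 184, 228 and 243, at -2.13 (adjusted p = 0.0027 in limma, SE 0.25), while Lox signals were 398, 422 and 452 at P3 against 255, 493 and 327, with overlap. Adamts3, Pcolce2, Sec24d and Fkbp14 lost their calls in at least 3 of the 6 fits with an array left out. Without adult replicate 3 or without P3 replicate 2 or 3 the count of calls was 5, where 1.79%, 2.28% and 2.06% of all genes were called higher at P3.

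**Figure D5:**
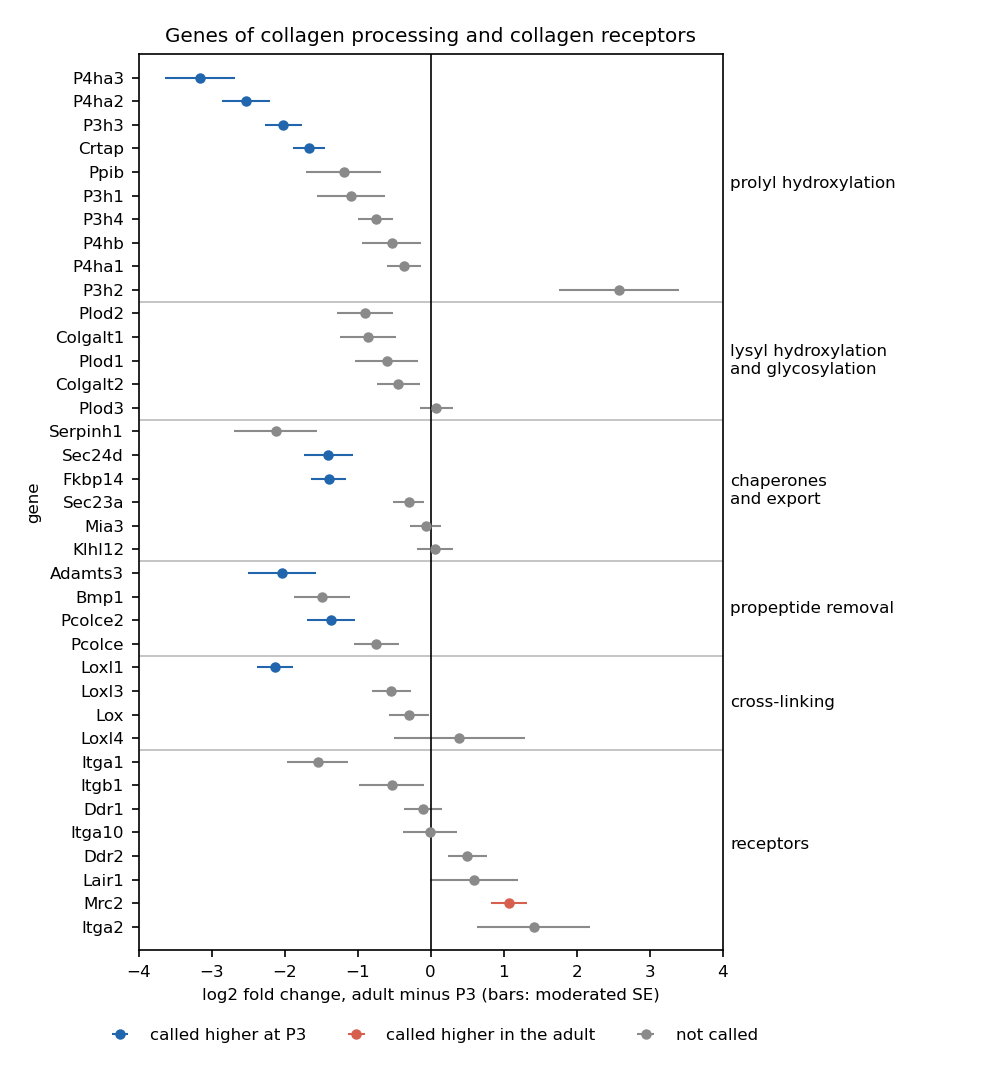
Log2 fold changes (adult minus P3, horizontal axis) of genes for collagen processing by step and of collagen receptors. Bars are limma's standard error. Genes called higher at P3 are blue, those called higher in the adult red and those not called grey. The 9 called processing genes lie to the left of 0, where P4ha3 at -3.16 was above background on 1 adult array, and Mrc2, at 1.07, is the called gene to the right of 0.

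Receptors that bind collagens had log2 fold changes of both signs. Of 10 listed, 8 were kept, and their median log2 fold change was 0.25. In limma 0 were called at P3 and 1 in the adult, against 5.54% and 4.58% of all genes. An unadjusted p under 0.05 was reached by 1 in each direction, against 28.9% of all genes in either direction. Mrc2, an endocytic receptor that takes up collagen for breakdown, had signals of 183, 147 and 187 at P3 and 315, 313 and 471 in the adult. It rose by 1.07 (adjusted p = 0.0361 in limma, SE 0.25), and lost this call in 5 of the 6 fits with an array left out. Averaged over its probe sets, the Mrc2 value was 0.49 (limma adjusted p = 0.486). The collagen-binding integrin Itga1 had signals of 70.3, 41.1 and 58.7 at P3 against 19.7, 15.1 and 22.7, with no overlap, at -1.55 (adjusted p = 0.057 in limma, SE 0.41). Ddr1 and Ddr2, receptor kinases for collagen, were at -0.11 (SE 0.26) and 0.50 (SE 0.27), with overlap.

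Markers of cell types known to make collagens were called in either direction or not at all. Over all genes tested, 5.54% were called higher at P3, 4.58% higher in the adult, and 28.9% had an unadjusted p under 0.05. Of 7 chondrocyte genes kept, 1 was called higher at P3, Matn1 at -3.41, and 1 higher in the adult, Ucma at 2.19, with a median of -0.03. Their summed signals were 4472 to 9218 at P3 and 4510.3 to 7159 in the adult. Of 5 osteoblast and osteocyte genes, 2 were called, both in the adult, at a median of 0.54, with sums of 878 to 1882 at P3 and 1667 to 3031 in the adult. No endothelial gene of 8 was called, at a median of -0.57 and sums of 898 to 1695 and 674 to 1225. The 6 mural cell genes kept had 0 calls, 3 genes at an unadjusted p under 0.05 and a median of 1.13, and the 4 Schwann cell genes 0 calls, 1 such gene and a median of 0.27. For the 6 hair cell genes kept, 0 were called, 0 had an unadjusted p under 0.05 and the median was -0.37.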

How the data were processed

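RNA of 6 CSE pools, 3 per stage, was amplified from an oligo-dT primer and hybridized to Affymetrix mouse arrays. The deposited values are linear intensities, the signals of the MAS5.0 algorithm, which the authors computed with GCOS, given as version 1.2 in the submitters' processing notes and as another version in the study's methods. They were used as deposited, with no further normalization. All columns were matched to a stage and replicate by their labels. Detection calls were not used here.

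Genes were named by the platform annotation supplied with these data, in which 34945 probe sets name 1 gene, 932 several and 9160 none, beside 64 control probe sets. Of 161 genes in the lists, 147 were in it. Col6a6 and Col28a1 have no probe set there. Probes lie near the 3' end of transcripts and not along a whole gene, so a probe set may miss isoforms that end elsewhere.

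Log2 signals were compared by stage in R 4.3.3 with the limma package (3.58.1), using lmFit and then eBayes with its trend option. SE is limma's moderated standard error. The script was tested on simulated data. The study's own test by relabelling of arrays was not rerun. The number of arrays limits the precision, and with 3 arrays a stage the smallest p of an exact permutation test is 0.1.

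The members, lists and alternatives were chosen with earlier results of these data known. The genes named are all collagen genes, the called members of the processing and receptor lists and the members of those lists that the text sets beside them. Alternatives were quantile normalization, scaling to a common median, other background filters, signals floored at or raised by the background, eBayes without the trend, array quality weights, the replicate number as a block, the mean over a gene's probe sets and each array left out. Sequence features of the chains were planned and are not analysed here. Promoters and gene positions are from RefSeq.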

Additional observations from a re-analysis of the deposited data

How the results depend on the processing

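The count of 17 collagen genes called higher at P3 was between 13 and 24 under the alternatives, and 12 of the 17 genes were called in all 17 of them. It was 13 with arrays scaled to the same median, where 1.48% of all genes were called higher at P3. Without the intensity trend it was 14, against 2.39% of all genes, and with array quality weights 24, against 12.1%. The median of the collagen genes lay between -2.00 and -1.58 with an array left out.

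Counts that moved by over 1.5 times were as follows. With arrays scaled to the same median, 282 and 280 probe sets in all were called higher at P3 and in the adult, FACIT chains 3, processing genes 5 and receptors in the adult 0. Without the intensity trend these were 485 and 414, processing genes 5 and receptors in the adult 0. With array quality weights they were 3182 and 4411, collagen genes in the adult 2 (Col19a1 and Col20a1), fibrillar chains 8, transmembrane chains 1, other chains 6, processing genes in the adult 1 and receptors at P3 2. Floored signals gave 5 other chains. Receptors at P3 were 1 with quantile normalization and with floored signals, and receptors in the adult 0 with the mean over probe sets. That mean moved the log2 ratio differences of Col1a1/Col1a2 to 0.44, Col5a1/Col5a2 to 0.84, Col1a1/Col3a1 to 2.52, Col4a1/Col4a2 to 0.49, Col6a1/Col6a2 to -0.61 and Col9a1/Col9a3 to -1.81. With each array left out, all probe sets ranged from 337 to 1401 at P3 and from 222 to 1393 in the adult, other chains from 3 to 5, processing genes from 5 to 10, and receptors from 0 to 1 in either direction.

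The sign turned in genes that were not called. Col11a2 was at 0.21 with weights and Col25a1 at 0.065 with the mean over probe sets. With an array left out, Col11a2 ranged from -0.90 to 0.069, Col20a1 from -0.12 to 1.18, Col22a1 from -1.46 to 0.055, Col4a3 from -1.15 to 0.58 and Col4a4 from -0.085 to 0.49. The cause was not tested.

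Arrays of the same replicate number shared only that number. Their deviations from the stage means correlated at 0.18, 0.21 and 0.08, and every array correlated best with the one of its own number, a hint from the data and not from the design. With the replicate number as a block, 22 collagen genes and 6 other chains were called higher at P3, against 6.34% of all genes. Signals near background limit Col4a3, Col4a6, Col15a1, Col19a1, Col20a1, Col22a1, P4ha3, P3h2 and Adamts3.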
